A study of Mus musculus with 48 samples.

Results

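The comparison described here sets liver against epididymal white adipose tissue (eWAT, the abdominal fat pad beside the epididymis) within 1 genotype and 1 housing temperature. Its 8 libraries, 4 of liver and 4 of eWAT, were chosen from the 48 of the series by their labels: hepAGT+/+, room temperature. The mice were males, the hepAGT+/+ littermates of hepAGT-/- mice, in which angiotensinogen is deleted in hepatocytes. They were kept at 20 to 22 °C with 14 hours of light and 10 of dark, and for 12 weeks ate the Western diet TD.88137, whose cholesterol content was 0.2% and whose milk fat content was 21%. No chow-fed group enters the comparison, so all values describe tissues of mice on this diet. The labels give the mice no age, do not say which Cre or floxed alleles the hepAGT+/+ mice carried, and number the libraries as biological replicates without tying a number to a mouse. Messenger RNA libraries were sequenced in pairs of reads and counted per gene. Each library held 33787582 to 36667439 counts in eWAT and 23711728 to 35050125 counts in liver.

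Liver and white fat divide the handling of lipid between them. Fat takes up fatty acids from circulating triglyceride, stores them in large droplets and releases them by lipolysis. Liver makes fatty acids and cholesterol, burns fatty acids, makes ketone bodies and bile acids, and secretes lipid in apolipoprotein B particles together with most plasma proteins. Fat is itself a secretory organ, known for leptin, adiponectin and matrix proteins.

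The genes that mark the tissues matched their labels. All 8 hepatocyte markers were over 2-fold higher in liver, and all 8 white adipocyte markers were over 2-fold higher in eWAT. Summed over the list, hepatocyte markers held 68400 to 97800 CPM (counts per 1000000, scaled between libraries by edgeR's TMM method) in liver and 1060 to 2540 CPM in eWAT. White adipocyte markers held 23700 to 26300 CPM in eWAT and 73.7 to 183 CPM in liver, where Adipoq and Lep had no counts in any library. The eWAT libraries were not alike in hepatocyte genes. Alb, Apoa1, Ttr, Serpina1c, Cps1, Tat and Hnf4a stood at a median of 0.16% of their liver mean in eWAT replicate 12, 1.59% in replicate 13, 0.0247% in replicate 15 and 1.83% in replicate 18. The eighth marker, Cyp2e1, did not follow them: it had 1056, 1387, 1032 and 1179 CPM in eWAT replicates 12, 13, 15 and 18. Over the 12 eWAT libraries of the other genotype and temperature groups the same medians, scaled by library totals, ran from 0.0162% to 6.31%. Replicate 18 also held 775 CPM of 10 epididymis genes, against 0.0909 to 8.83 CPM in the other 3 eWAT libraries, and 42.8 CPM of 5 sperm and testis genes. Of the epididymis genes in replicate 18, Crisp1 held 619.9 CPM, Adam7 104.9 CPM and Lcn5 48.17 CPM, and no other held more than 0.9325 CPM. The part of the epididymis and sperm genes in the eWAT values below was not tested. For genes that rise and fall with the hepatocyte markers, the size of the liver excess depends on replicates 13 and 18. Such genes are given below with and without both, a choice made after seeing the data. In whole tissue, fewer cells of a type and less RNA per cell cannot be told apart.

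**Figure D1:**
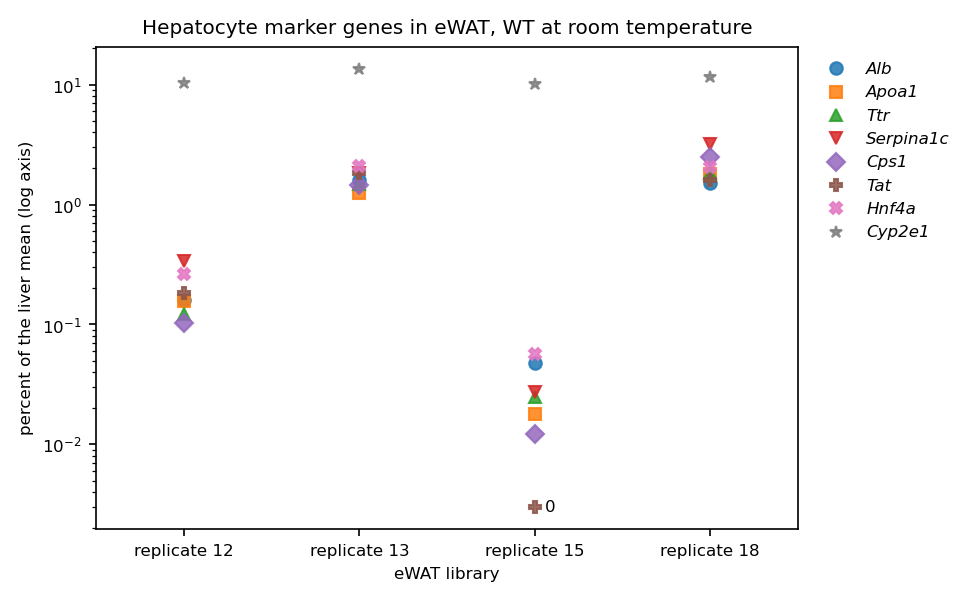
Level of 8 hepatocyte marker genes in each eWAT library as a percent of the liver mean (log axis, 1 point a gene, a level of 0 marked as 0). Without Cyp2e1, replicates 13 and 18 have medians of 1.59% and 1.83%, and replicates 12 and 15 medians of 0.16% and 0.0247%. Cyp2e1 lies at 10.1% to 13.5%.

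The promoters printed here show the sequence in front of genes that the comparison separates widely, 3 of genes with nearly all their counts in liver and 3 of genes with nearly all in eWAT. Each line gives the 160 bases before the RefSeq transcription start on the gene's strand, in GRCm38.p6, with motif matches in capitals. Alb (albumin) lies at chr5:90460710-90460869 on the plus strand, Fga (fibrinogen alpha chain) at chr3:83025993-83026152 plus, and Fabp1 (liver fatty acid binding protein) at chr6:71199719-71199878 plus. Adipoq (adiponectin) lies at chr16:23146376-23146535 plus, Lep (leptin) at chr6:29060061-29060220 plus, and Plin1 (perilipin 1, the coat of the fat droplet) at chr7:79732777-79732936 minus.
Alb: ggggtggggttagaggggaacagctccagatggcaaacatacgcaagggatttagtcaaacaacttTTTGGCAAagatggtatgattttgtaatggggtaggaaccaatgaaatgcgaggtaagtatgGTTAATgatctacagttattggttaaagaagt
Fga: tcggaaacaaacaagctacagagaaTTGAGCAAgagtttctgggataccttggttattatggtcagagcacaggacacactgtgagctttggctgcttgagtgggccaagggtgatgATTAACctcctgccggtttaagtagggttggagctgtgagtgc
Fabp1: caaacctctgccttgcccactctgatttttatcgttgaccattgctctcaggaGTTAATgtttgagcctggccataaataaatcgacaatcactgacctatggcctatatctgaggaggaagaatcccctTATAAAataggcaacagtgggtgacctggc
Adipoq: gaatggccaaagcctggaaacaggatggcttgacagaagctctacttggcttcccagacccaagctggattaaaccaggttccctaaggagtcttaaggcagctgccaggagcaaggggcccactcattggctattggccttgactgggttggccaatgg
Lep: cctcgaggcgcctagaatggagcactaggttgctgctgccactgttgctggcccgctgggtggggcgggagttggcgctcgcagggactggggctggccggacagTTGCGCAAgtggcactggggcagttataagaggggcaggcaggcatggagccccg
Plin1: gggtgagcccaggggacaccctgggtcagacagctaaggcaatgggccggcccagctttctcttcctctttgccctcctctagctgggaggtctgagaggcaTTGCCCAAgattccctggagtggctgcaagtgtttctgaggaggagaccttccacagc
The motifs searched, on both strands, were the HNF1 core GTTAAT, the HNF4 site CAAAGTCCA, the C/EBP site TTGCNNAA, the TATA box TATAAA and the E-box CACGTG. Motifs were read in 9 promoters, of which 6 are printed. The capitals mark an HNF1 core in Alb, Fga and Fabp1, a C/EBP site in Alb, Fga, Lep and Plin1, and a TATA box in Fabp1. Adipoq held no match in this stretch. Of the promoters not printed, that of Serpina1a held an HNF1 core, and those of Apoa1, a liver gene, and Retn, a fat gene, held no match. Of all 27025 promoters of the table, read over 300 bases, 7.2% held the HNF1 core, 10.8% the C/EBP site, 14.2% the TATA box, 7.24% the E-box and 0.477% the HNF4 site. A match of these letters is a description of the sequence, not a measured binding site.

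Across all genes the tissues differed widely. Of 17071 genes tested with edgeR's quasi-likelihood test, 4281 (25.1%) were higher in liver and 5177 (30.3%) higher in eWAT at a Benjamini-Hochberg adjusted p under 0.05, which is what "called" means below. A test against a 2-fold difference called 2318 genes (13.6%) over 2-fold higher in liver and 2958 (17.3%) over 2-fold higher in eWAT. The median log2 difference, liver minus eWAT, was -0.121. Scaling by library totals alone moved that median to -0.595 and the share of called genes that were higher in liver from 45.3% to 27.7%, so differences under about 0.5 on the log2 scale depend on the scaling. The genes followed below come from 24 lists of lipid, glucose, regulator and secreted-protein genes: 492 members, of which 491 were found in the files and 475 tested. Of these, 267 were called higher in liver and 156 higher in eWAT. Over 2-fold, 49.5% of the members tested were higher in liver and 27.2% in eWAT, against 13.6% and 17.3% of all genes. Counts of a list below are to be read beside the shares of all genes, 25.1% called higher in liver and 30.3% in eWAT. The lists were drawn up from the known roles of liver and fat, so these shares describe the choice of lists as much as the tissues.

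**Figure D2:**
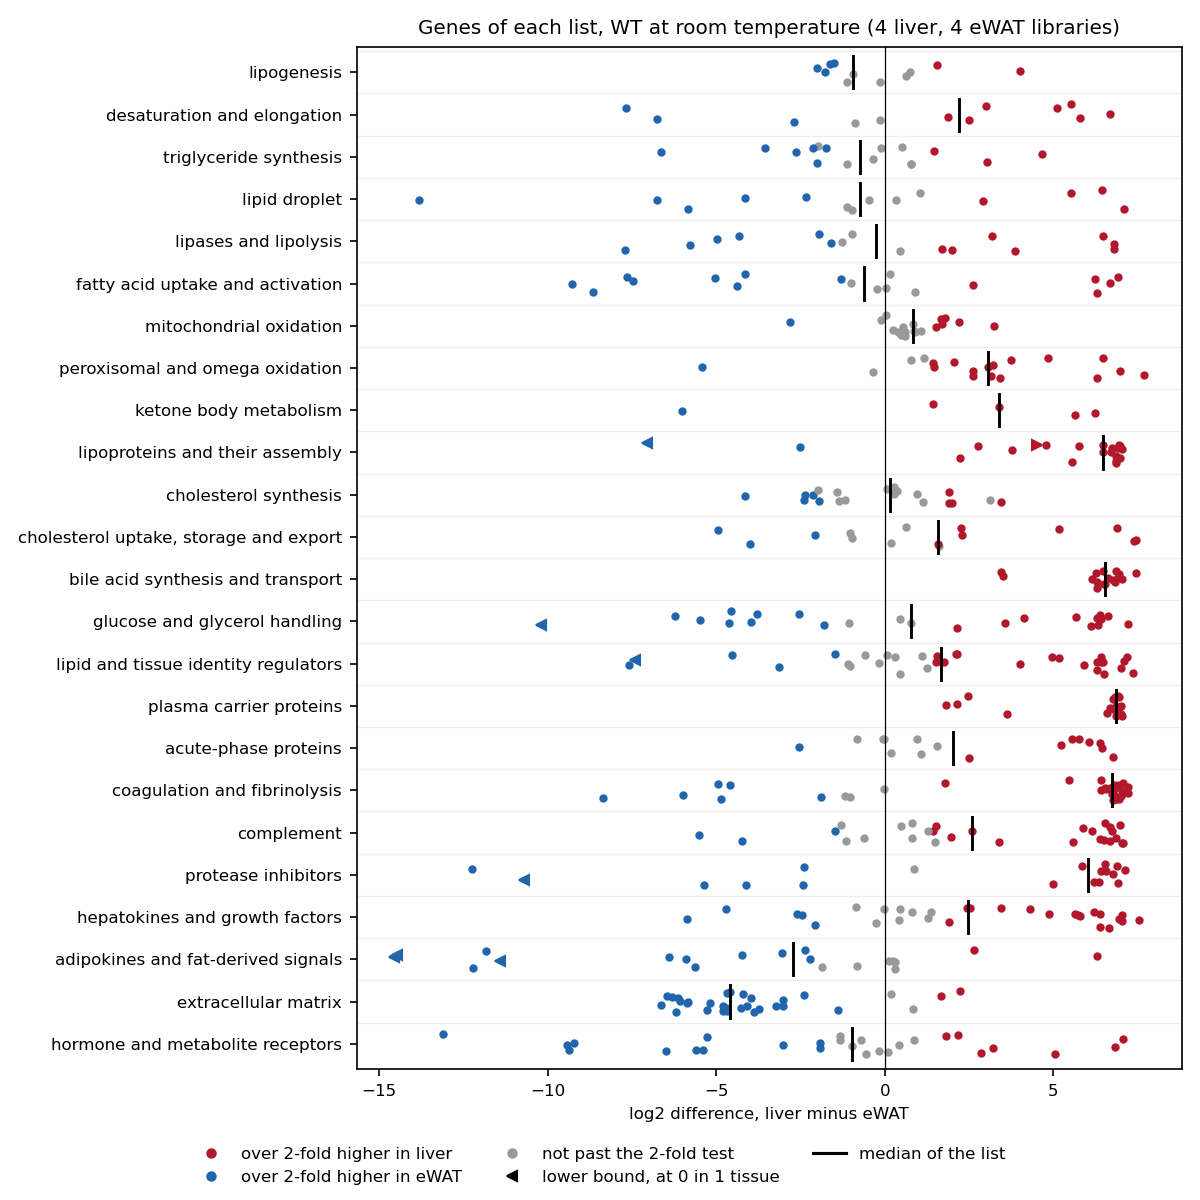
Log2 difference, liver minus eWAT, of each tested member of the 24 gene lists (1 point a gene; genes without counts in 1 tissue are drawn at their bound). Bile acid, carrier and lipoprotein lists lie to the liver side with medians above 6, and extracellular matrix and adipokine lists to the eWAT side with medians of -4.6 and -2.71.

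Several enzymes that build fatty acids were higher in fat than in liver, while Srebf1 and Mlxipl, known as their activators, were higher in liver. Fasn, fatty acid synthase, had 1149, 1266, 292.3 and 1285 CPM in liver replicates 11, 12, 15 and 18 and 5392, 3285, 3038 and 4381 CPM in eWAT replicates 12, 13, 15 and 18. Every eWAT library lay above every liver library, by 4.03-fold on average (log2 difference -2.01, SE 0.458, adjusted p = 0.00615), and liver replicate 15 was the lowest by far. Acaca, the acetyl-CoA carboxylase that makes malonyl-CoA, had 140.2, 107, 108.2 and 229.2 CPM in liver and 507.3, 353.2, 387.5 and 408.9 CPM in eWAT, again without overlap (-1.50, SE 0.246, adjusted p = 0.000453). Acss2, which makes acetyl-CoA from acetate, was 3.43-fold higher in eWAT (adjusted p = 0.00202), and Me1, malic enzyme, a source of NADPH, 3.08-fold (adjusted p = 0.000679). Slc25a1, the mitochondrial citrate carrier, was higher in eWAT by less (log2 difference -1.12, adjusted p = 0.000464). Acly, which cleaves citrate to acetyl-CoA, had 217.5, 252, 145.7 and 455.7 CPM in liver and 630.4, 469.4, 314.9 and 642.3 CPM in eWAT. Its libraries overlapped and it missed the threshold (log2 difference -0.94, adjusted p = 0.0512). It was called without eWAT replicate 15 (-1.07) and without liver replicate 18 (-1.33).

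Srebf1, the gene of the transcription factor SREBP-1, ran the other way, with 1165, 1422, 901.3 and 838 CPM in liver and 450.5, 328.4, 379 and 321.6 CPM in eWAT (log2 difference 1.55, SE 0.19, adjusted p = 5.72e-05). The counts do not separate its isoforms. Mlxipl, the gene of the glucose-responsive factor ChREBP, had 713, 734.9, 321 and 536.5 CPM in liver and 53.55, 31.29, 34.08 and 23.95 CPM in eWAT (log2 difference 4.01, SE 0.341, adjusted p = 7.71e-06). Neither gene's libraries overlapped between tissues. Of the 11 tested members of the lipogenesis list, 2 were called higher in liver, these factors, and 5 higher in eWAT. Over 2-fold the counts were 2 and 4 (18.2% and 36.4%, against 13.6% and 17.3% of all genes). The median log2 difference was -0.94. Without eWAT replicates 13 and 18, 1 and 0 members were over 2-fold, although the log2 difference of Fasn was then still -2.01 and that of Acaca -1.56. Acacb, the carboxylase placed at mitochondria, was not called (log2 difference -0.15, adjusted p = 0.859), except without liver replicate 18 (-1.09).

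**Figure D3:**
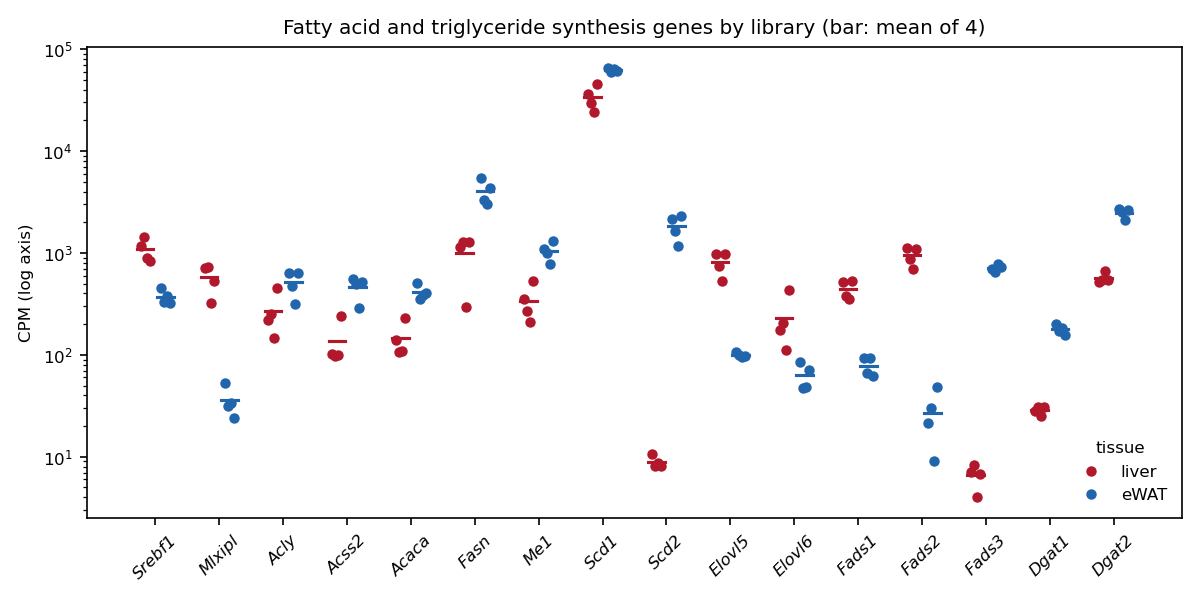
CPM of lipogenic enzymes and of their regulators in the 4 liver and 4 eWAT libraries (log axis; points are libraries). Fasn, Acaca, Acss2 and Me1 lie higher in eWAT, Srebf1 and Mlxipl higher in liver.

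Desaturases and elongases split between the tissues. Scd1, the stearoyl-CoA desaturase that makes oleate, was the gene with most counts in eWAT and the second in liver. Its level was 36480, 29330, 24160 and 45670 CPM in liver and 64620, 59830, 63670 and 60360 CPM in eWAT, a 1.83-fold excess in eWAT without overlap (log2 difference -0.87, SE 0.17, adjusted p = 0.00131). Without eWAT replicates 13 and 18 the log2 difference was -0.86 and the adjusted p 0.0887. Scd2, its close relative, was at 10.73, 8.034, 8.723 and 8.14 CPM in liver and 2161, 1639, 1158 and 2316 CPM in eWAT, 204-fold apart (log2 difference -7.67, SE 0.278, adjusted p = 2.37e-08). Per kilobase of exon, Scd1 stood at 6930 CPM and Scd2 at 1.63 CPM in liver, and at 12700 and 333 CPM in eWAT. The front-end desaturases and elongases of polyunsaturated fatty acids were higher in liver: Fads1 by 2.51 (SE 0.202), Fads2 by 5.12 (SE 0.53; 6.01 without eWAT replicates 13 and 18) and Elovl5 by 3.01 (SE 0.196) on the log2 scale. Elovl2, which extends the longest polyunsaturated chains, had 504.5 to 716.5 CPM in liver and 0.2241 to 12.37 CPM in eWAT (log2 difference 6.69, or 9.95 without eWAT replicates 13 and 18). Fads3 was the exception, at 4.061 to 8.295 CPM in liver and 655.2 to 785.1 CPM in eWAT (log2 difference -6.77). Of 12 tested members 7 were called higher in liver and 4 in eWAT.

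Triglyceride synthesis leaned to fat, with different members of a step in each tissue. Of 16 tested members 4 were called higher in liver and 9 higher in eWAT, with a median log2 difference of -0.74. The liver count is near the share of all genes called higher in liver (25.1%). Over 2-fold, 18.8% were higher in liver and 37.5% in eWAT, against 13.6% and 17.3% of all genes. Dgat1 and Dgat2, which add the last acyl chain, were both higher in eWAT. Dgat1 had 25.29 to 30.92 CPM in liver and 156.2 to 202.4 CPM in eWAT (log2 difference -2.64, SE 0.127), and Dgat2 516.5 to 658 CPM in liver and 2114 to 2674 CPM in eWAT (-2.14, SE 0.13). Per kilobase Dgat2 exceeded Dgat1 in both tissues, at 184 against 9.38 CPM in liver and 806 against 58.5 CPM in eWAT. Of the lipins, the phosphatidate phosphatases, Lpin1 was higher in eWAT (-2.01, SE 0.292) and Lpin2 in liver (4.66, SE 0.186). Gpat3, a glycerol-phosphate acyltransferase, was higher in eWAT (-3.56, SE 0.204), and Gpat4 in liver (1.46, SE 0.149). Gk, glycerol kinase, which lets a tissue reuse free glycerol, had 141.4 to 170.3 CPM in liver and 13.32 to 30.28 CPM in eWAT (log2 difference 3.02, SE 0.258), where replicate 18 was the highest. Mogat2, the monoacylglycerol acyltransferase, had at most 0.4623 CPM in liver and 9.735 to 17.99 CPM in eWAT. Its eWAT libraries all lay above its liver libraries, with a log2 difference of -6.65 (SE 0.793) that became -8.92 without liver replicate 11.

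Proteins of the lipid droplet were divided between the tissues. Plin1 had no counts in 3 liver libraries and 0.4238 CPM in the fourth, replicate 15, against 1527 to 1959 CPM in eWAT. Plin4, another perilipin, and Cidec, which fuses droplets, were 108-fold and 56.6-fold higher in eWAT (log2 differences -6.75 and -5.82, SE 0.489 and 0.446). Plin2, the perilipin found on droplets of most cells, had 1007, 619.6, 666.9 and 695.2 CPM in liver and 577.7, 596.8, 432.8 and 781.6 CPM in eWAT. The Plin2 libraries overlapped and its difference was not called (0.32, SE 0.205, adjusted p = 0.205); with scaling by library totals it turned to -0.14, and without eWAT replicate 18 it was called at 0.54. Cideb, the relative of Cidec that serves lipoprotein assembly, and Hsd17b13, a droplet enzyme of hepatocytes, were higher in liver, by 6.44 and 7.11 on the log2 scale with all libraries and by 9.19 and 9.64 without eWAT replicates 13 and 18. Cidea, the third CIDE gene, was also higher in liver, with 5.255 to 32.93 CPM there and 1.182 to 4.343 CPM in eWAT (2.92; 3.72 without replicates 13 and 18). Plin5, the perilipin of oxidative tissues, was modestly higher in liver (1.05, SE 0.172, adjusted p = 0.000437). Of 14 tested members 5 were called higher in liver and 8 in eWAT. Shares over 2-fold were 28.6% and 35.7%, against 13.6% and 17.3% of all genes.

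Lipases were divided between the tissues. Pnpla2, adipose triglyceride lipase, had 47.28 to 92.85 CPM in liver and 1125 to 1624 CPM in eWAT (log2 difference -4.31, SE 0.243). Lipe, hormone-sensitive lipase, had 18.75 to 35.53 CPM in liver and 1332 to 1824 CPM in eWAT (-5.77, SE 0.263). Mgll, which cleaves the last monoglyceride, and Abhd5, the activator of Pnpla2, were higher in eWAT by less (-1.95 and -1.59, SE 0.126 and 0.121). Lpl, lipoprotein lipase, which frees fatty acids from circulating triglyceride, had 36.13 to 82.55 CPM in liver and 12610 to 14350 CPM in eWAT, a 211-fold difference (-7.72, SE 0.293). Pnpla3, a lipase known for a human liver-fat variant, had 0.9889 to 11.79 CPM in liver and 128.9 to 262 CPM in eWAT (-4.99, SE 0.73, adjusted p = 0.000921; -5.57 without liver replicate 18). Liver had its own lipases: Lipc, hepatic lipase, stood at 139.7 to 186.1 CPM in liver and 0.04979 to 3.084 CPM in eWAT (6.80, or 9.81 without eWAT replicates 13 and 18), and Lipa, the lysosomal acid lipase, was 2.00 higher in liver (SE 0.165). Of 16 tested members 7 were called higher in liver and 8 in eWAT. Shares over 2-fold were 43.8% and 37.5%, against 13.6% and 17.3% of all genes.

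Genes of fatty acid uptake differed by tissue. Fabp4, the fat cell's fatty acid binding protein, had 26.95, 10.51, 17.73 and 16.49 CPM in liver and 11420, 11220, 11720 and 10450 CPM in eWAT (log2 difference -9.29, SE 0.33, adjusted p = 2.74e-08). Fabp1 had 6239, 4926, 5668 and 4394 CPM in liver and 14.59, 125, 2.888 and 128.9 CPM in eWAT (6.29, SE 1.32; 9.31 without replicates 13 and 18). Fabp1 is thus among the genes whose eWAT level rises and falls with the hepatocyte markers. Cd36, the fatty acid translocase, was 21-fold higher in eWAT (-4.39, SE 0.203). Of the fatty acid transport proteins Slc27a1 was higher in eWAT (-5.04, SE 0.204) and Slc27a2 and Slc27a5 higher in liver (6.69 and 6.92, or 9.42 and 10.62 without replicates 13 and 18). Acsl1, the main acyl-CoA synthetase of both tissues, was not called: it had 1278 to 1458 CPM in liver and 1204 to 1888 CPM in eWAT (-0.24, SE 0.144, adjusted p = 0.193). Acsl5 was higher in liver (2.62, SE 0.188). In all, 6 of 18 tested members were called higher in liver and 8 in eWAT. Shares over 2-fold were 27.8% and 44.4%, against 13.6% and 17.3% of all genes.

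Genes of fatty acid oxidation were mostly higher in liver. Of 19 tested genes of mitochondrial oxidation 15 were called higher in liver and 1 in eWAT, with a median log2 difference of 0.83. Of these, 6 were over 2-fold in liver, and under scaling by library totals 9 and 3 were called. Cpt1a, the gate of mitochondrial import, had 526.1 to 612.7 CPM in liver and 104.2 to 149.3 CPM in eWAT (2.22, SE 0.139, adjusted p = 4.32e-07). Acaa2, the last thiolase of the cycle, was 9.55-fold higher in liver. Of the acyl-CoA dehydrogenases, Acadvl for very long chains was 1.69 higher (SE 0.151). Acadl for long chains, at 201.1 to 310.9 CPM in liver and 242.6 to 289.8 CPM in eWAT, was not called. Under scaling by library totals Acadl was called higher in eWAT (-0.42). Of 19 tested peroxisomal and omega-oxidation genes 17 were called higher in liver, 15 of them over 2-fold, with a median of 3.05. Ehhadh, the bifunctional enzyme of peroxisomes, was 3.15 higher in liver (SE 0.161). The exception was Abcd2, a peroxisomal importer of very long chain acyl-CoA, with 8.425 to 16.45 CPM in liver and 507.6 to 696.9 CPM in eWAT (-5.42, SE 0.245). Its relative Abcd3 was higher in liver (3.05, SE 0.159).

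Of 5 tested genes of ketone body metabolism 4 were called higher in liver and 1 in eWAT. The gene of eWAT was Oxct1. Oxct1, which activates ketone bodies for burning and which liver is known to lack, had 7.793, 3.778, 6.993 and 5.949 CPM in liver and 364, 425.5, 406.5 and 386.4 CPM in eWAT (-6.01, SE 0.239, adjusted p = 3.11e-08). Its liver and eWAT libraries did not overlap.

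Genes of cholesterol synthesis did not move as 1 group. Of 20 tested members 7 were called higher in liver and 7 in eWAT, and the median log2 difference was 0.17. Those of liver included Ebp, a sterol isomerase, with 180.5 to 197 CPM in liver and 35.43 to 58.62 CPM in eWAT (1.91, SE 0.157), and Tm7sf2, a sterol reductase (2.00, SE 0.268). Hmgcs1, the cytosolic synthase early in the pathway, was higher in eWAT, with 98.57 to 127.9 CPM in liver and 543.5 to 671.8 CPM in eWAT (-2.40, SE 0.13). The mevalonate pathway kinases Mvk (-1.96) and Pmvk (-2.13), and the sterol dehydrogenase Nsdhl (-2.36) were likewise higher in eWAT. Srebf2, the factor that drives the pathway, was not called (0.07, SE 0.125, adjusted p = 0.676). Under scaling by library totals Srebf2 was called higher in eWAT (-0.41). For uptake and export, Scarb1, the high-density lipoprotein receptor, was higher in liver (1.58, SE 0.181), and Vldlr, the very-low-density lipoprotein receptor, in eWAT, with 1.618 to 11.33 CPM in liver and 134.4 to 204.9 CPM in eWAT (-4.95, SE 0.706; -5.58 without liver replicate 11). Soat2, which esterifies cholesterol for lipoproteins, had 44.98 to 66.27 CPM in liver and 0.1494 to 0.6075 CPM in eWAT (7.44, SE 0.362). Abcg5, a partner in the biliary sterol exporter, was higher in liver and Abcg1, the sterol exporter of many cells, in eWAT (-2.08, SE 0.204). Abcg5 had 329.6 to 519.3 CPM in liver and 0 to 5.104 CPM in eWAT, where replicate 15 had none.

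All 17 tested genes of bile acid synthesis and transport were called over 2-fold higher in liver, with a median log2 difference of 6.55. Cyp7a1, the rate-limiting enzyme of the classic pathway, had 53.99, 154.5, 127.1 and 221.6 CPM in liver and 0.04546, 0.8411, 0 and 3.902 CPM in eWAT (6.87, SE 1.43, adjusted p = 0.00571; 12.35 without eWAT replicates 13 and 18). Its eWAT counts lay almost wholly in replicates 13 and 18, so the size without both is uncertain. Cyp27a1, the sterol 27-hydroxylase of the other pathway, was an exception to that pattern, with 496.2 to 572.9 CPM in liver and 46.75, 42.36, 57.46 and 44.24 CPM in eWAT (3.50, SE 0.139, adjusted p = 3.11e-08). Its 4 eWAT libraries did not follow the hepatocyte markers.

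The same step was often carried by a different gene of a family in each tissue. Of 24 pairs of related genes, each a liver form and a fat form, the ratio of the forms was higher in every liver library than in every eWAT library for 21, and the libraries overlapped for 3 (Cpt1a to Cpt1b, Acacb to Acaca, and Adipor2 to Adipor1). In 16 pairs the liver form was over 2-fold higher in liver and the fat form over 2-fold higher in eWAT. The log2 ratio of Ppara, the nuclear receptor of oxidation, to Pparg, that of adipocytes, was 3.06 ± 0.21 (SD, n = 4) in liver and -5.10 ± 0.66 (SD, n = 4) in eWAT. For Lpin2 to Lpin1 the ratio was 2.26 ± 0.57 in liver and -4.49 ± 0.31 in eWAT. Scd1 to Scd2 was 11.86 ± 0.43 in liver and 5.14 ± 0.47 in eWAT, so Scd1 exceeded Scd2 in both tissues, as it did per kilobase. Fabp1 to Fabp4 was 8.27 ± 0.44 in liver and -8.61 ± 2.71 in eWAT; in eWAT replicates 12 and 15 alone it was -10.8. The pairs were chosen for known tissue preferences, so the count describes them and not gene families at large.

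**Figure D4:**
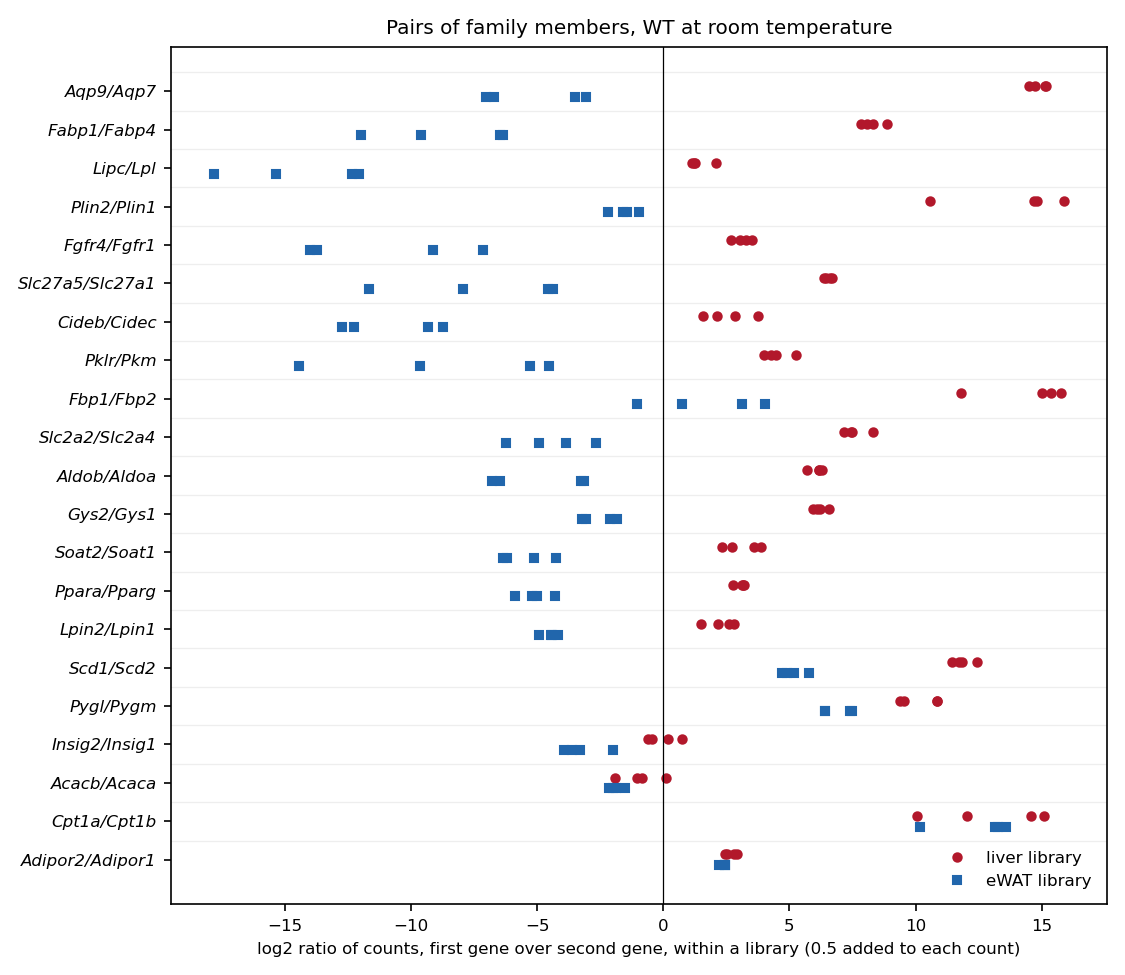
Log2 ratio of the liver form to the fat form of 21 of the 24 gene pairs in each library (0.5 added to each count; points are libraries). In 18 of the 21 drawn the 4 liver points lie above the 4 eWAT points.

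Genes of glucose and glycerol handling also fell on both sides. Of 23 tested genes 11 were over 2-fold higher in liver and 9 over 2-fold higher in eWAT. Slc2a2, the liver glucose transporter, had 393.7 to 514.9 CPM in liver and 1.796 to 12.91 CPM in eWAT (6.12, SE 0.675; 7.45 without replicates 13 and 18), and Slc2a4, the insulin-responsive transporter, 1.216 to 3.236 CPM in liver and 82.03 to 136.4 CPM in eWAT (-5.48, SE 0.307). Hk2, the hexokinase of insulin-responsive tissues, was higher in eWAT (-6.21, SE 0.335). Aqp7, the glycerol channel of fat cells, had 143.8 CPM in eWAT and no counts in liver, which makes it at least 1170-fold higher (against a floor of 3 counts per liver library). Aqp9, the glycerol channel of hepatocytes, had 588.5 to 626.4 CPM in liver and 1.344 to 15.21 CPM in eWAT (6.37; 8.84 without replicates 13 and 18). Pck1, which makes the glycerol backbone in fat and glucose in liver, was not called: it had 1637, 2416, 2158 and 1761 CPM in liver and 993.9, 932.8, 2069 and 679.6 CPM in eWAT (0.77, adjusted p = 0.0675), with eWAT replicate 15 inside the liver range. Without that library it was called (1.25).

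Among regulators, 23 of 34 tested genes were called higher in liver and 7 in eWAT. Hnf4a, the hepatocyte nuclear factor, had 437.5 to 683 CPM in liver and 0.2988 to 10.91 CPM in eWAT (6.48; 9.31 without eWAT replicates 13 and 18). Nr5a2, the bile acid pathway receptor LRH-1, differed without following the hepatocyte markers: it had 59.04 to 81.55 CPM in liver and 3.091, 2.056, 1.32 and 1.472 CPM in eWAT (5.18, SE 0.28). Ppara was 4.97 higher in liver (SE 0.333), and Pparg 3.13 lower, its log2 difference being -3.13 (SE 0.202). Ebf2, a factor of adipocyte precursors, had 20.75 CPM in eWAT and none in liver. Cebpa, needed by hepatocytes and adipocytes alike, had 438.2 to 609.5 CPM in liver and 633.4 to 937.5 CPM in eWAT (-0.59, SE 0.155, adjusted p = 0.00771). Insig2, which holds SREBP in the endoplasmic reticulum, and Scap, its escort, were higher in liver (2.11 and 1.62, SE 0.194 and 0.101).

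Plasma proteins were mostly higher in liver. The 6 lists of plasma proteins (carriers, lipoproteins, acute-phase, coagulation, complement and protease inhibitors) took 20.1 ± 2.87% (SD, n = 4) of all counts in liver and 2.54 ± 0.417% (SD, n = 4) in eWAT, or 2.19% in eWAT replicates 12 and 15. Alb alone had 52700, 55650, 60460 and 42810 CPM in liver and 84.59, 839.9, 25.45 and 805.5 CPM in eWAT (6.91, SE 1.32; 9.97 without replicates 13 and 18). All 19 tested carriers and 19 of 21 lipoprotein genes were called over 2-fold higher in liver. Apob, the core of secreted particles, had 4926 to 7010 CPM in liver and 3.5, 104.4, 0.8714 and 94.18 CPM in eWAT (6.86; 11.45 without replicates 13 and 18). Mttp, which loads it with lipid, had 365.5 to 453.1 CPM in liver and 3.75 to 10.72 CPM in eWAT (5.76, SE 0.378; 6.57 without replicates 13 and 18). The lipoprotein genes higher in eWAT were Pltp, phospholipid transfer protein (-2.52, SE 0.258), and Apod, with 16.42 CPM in eWAT and none in liver. Of 33 tested coagulation genes 24 were called higher in liver and 8 in eWAT. Those of eWAT included genes of vessel wall and fibrinolysis: Thbd, thrombomodulin (-4.94, SE 0.339), and Plat, tissue plasminogen activator (-4.58, SE 0.533). F13a1, the subunit of clot-stabilising factor XIII made by macrophages, had at most 0.9182 CPM in liver and 95.11 to 142.7 CPM in eWAT.

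Some plasma-protein genes also had many counts in the fat pad. Of the 99 members of these 6 lists that were over 2-fold higher in liver, 62 stood under 0.1% of their liver mean in eWAT replicate 15, the library lowest in hepatocyte markers, and 14 at 5% or more. The 14 include Trf, transferrin (24.9%), Rbp4, the retinol carrier (18.7%), Selenop, the selenium carrier (18.1%), Apoe (14.2%), C3 (14.5%), C6 (29%) and C1s1 (35.9%). Trf had 11180, 10900, 14570 and 11730 CPM in liver and 3518, 3014, 3009 and 4214 CPM in eWAT (1.82, SE 0.147, adjusted p = 2.61e-06). Apoe had 20310, 21570, 31010 and 16010 CPM in liver and 3484, 3349, 3150 and 2963 CPM in eWAT (2.78, SE 0.188). In neither gene were eWAT replicates 13 and 18 both above replicates 12 and 15.

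**Figure D5:**
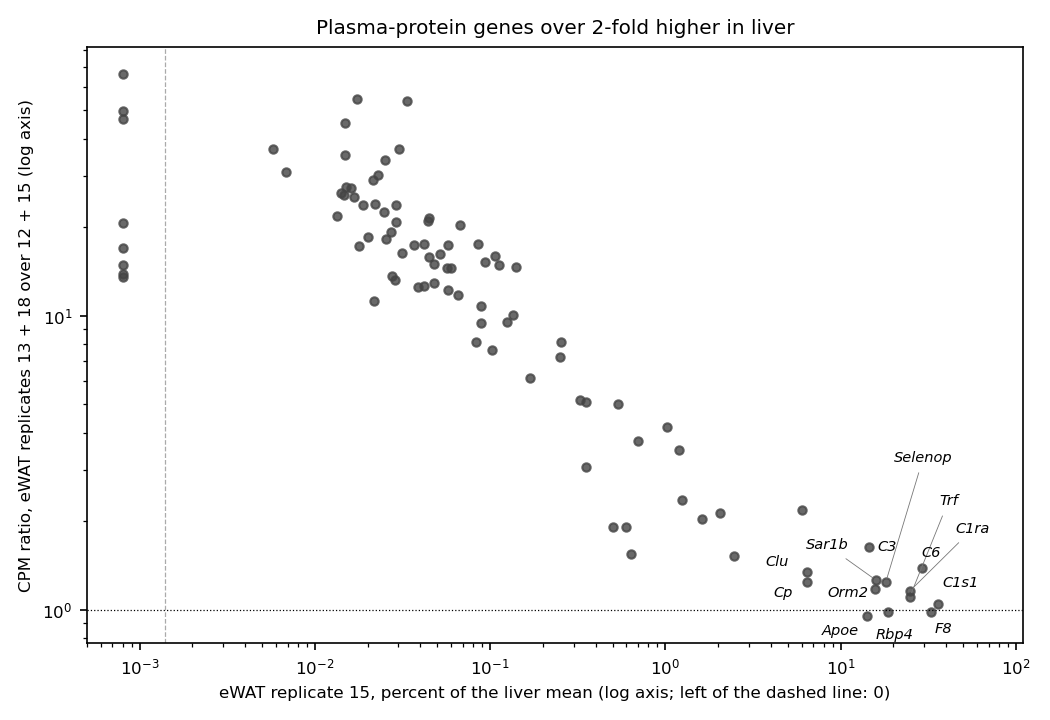
Level in eWAT replicate 15 as a percent of the liver mean against the ratio of eWAT replicates 13 and 18 to replicates 12 and 15, for plasma-protein genes over 2-fold higher in liver (log axes; 1 point a gene). Of 99 genes 95 are drawn, 8 of them at 0 in replicate 15. Trf, Rbp4, Selenop and Apoe lie at high percent and a ratio near 1.

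A few proteins known as liver products were as high or higher in fat. Hp, haptoglobin, had 2246, 1828, 3769 and 1581 CPM in liver and 1204, 2658, 1586 and 4084 CPM in eWAT. The ranges overlapped and the difference was not called (log2 difference -0.02, SE 0.429, adjusted p = 0.978); without eWAT replicates 13 and 18 it was 0.81. Lbp, which binds bacterial lipopolysaccharide, had 53.89, 57.5, 76.99 and 35.17 CPM in liver and 261.9, 324.1, 273 and 457.1 CPM in eWAT (-2.56, SE 0.26, adjusted p = 1.69e-05). Serpina3c, a serine protease inhibitor, had at most 0.08685 CPM in liver and 227.1, 284.7, 240.9 and 288.9 CPM in eWAT (log2 difference -12.26, edgeR adjusted p = 1.77e-08). With liver under the floor of 0.123 CPM, the size of its difference is uncertain. Its gene lies in a family of close copies, so shared reads may be split unevenly between members. Its relative Serpina3n was also higher in eWAT (-0.81, SE 0.201, adjusted p = 0.00551), but without eWAT replicates 13 and 18 the difference was -0.41 (adjusted p = 0.139). Orm1, an acute-phase glycoprotein, was higher in liver by less than 2-fold (0.96, SE 0.128), with 285.1 to 344.4 CPM in eWAT. Of 16 tested acute-phase genes 9 were called higher in liver and 2, Lbp and Serpina3n, in eWAT. C4b, a complement component, was not called, at 1311 to 1637 CPM in liver and 599.4 to 1427 CPM in eWAT (0.48, adjusted p = 0.0901). Without eWAT replicate 18 it was called at 0.75.

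Of 29 tested complement genes 22 were called higher in liver and 6 in eWAT. The 3 chains of C1q, which starts the classical pathway and is known to come from macrophages, were among those of eWAT: C1qa (-1.49, SE 0.17), C1qb (-1.31, SE 0.204) and C1qc (-1.16, SE 0.228). The 5 macrophage markers, C1qa among them, summed to 311 to 441 CPM in eWAT and 146 to 188 CPM in liver, and none was at 0 in a library. The part of macrophage number in the C1q differences was not tested. Of 18 tested protease inhibitors 12 were called higher in liver and 6 in eWAT. Timp2 and Timp3, inhibitors of the metalloproteinases that cut matrix, were higher in eWAT (-4.12 and -2.42, SE 0.229 and 0.235), as was Cst3, the cathepsin inhibitor cystatin C (-2.39, SE 0.148).

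Leptin and adiponectin, the best known hormones of fat, had no counts in liver, while other fat-derived signals differed less. Lep had 2602, 2901, 2715 and 3628 CPM and Adipoq 2824, 2756, 3351 and 2301 CPM in eWAT, and no liver library held a count of either. Against the floor of 3 counts per library they were at least 24100-fold and 22800-fold higher in eWAT. Retn, resistin, had 1008 to 1644 CPM in eWAT and 1.129 CPM in liver replicate 12 only. Cfd, adipsin, a complement protease secreted by fat cells, had 53.33, 61.1, 88.61 and 126.4 CPM in liver and 1732, 1587, 1775 and 1084 CPM in eWAT (-4.23, SE 0.309). Sfrp5, a Wnt inhibitor, had 148.2, 196.9, 421.8 and 271.2 CPM in eWAT and 0.2312 CPM in liver replicate 11 only. Rarres2, chemerin, often listed as an adipokine, was not called: it had 459.7 to 551.3 CPM in liver and 364.3 to 480.5 CPM in eWAT (0.26, adjusted p = 0.111; -0.21 under scaling by library totals). Serpina12, vaspin, named for visceral fat, was over 2-fold higher in liver, with 85.38 to 199.3 CPM there and 0.09959 to 4.981 CPM in eWAT (6.31, SE 1.21; 9.57 without eWAT replicates 13 and 18). Of 20 tested fat-derived signals 12 were called higher in eWAT and 2 in liver, the other being Dpp4 (2.65, SE 0.194).

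Matrix genes were mostly higher in fat. Of 31 tested members 27 were called higher in eWAT, all over 2-fold, and 3 in liver, with a median log2 difference of -4.60. Sparc, a collagen-binding protein, had 73.57, 50.64, 45.63 and 59.02 CPM in liver and 4218, 4816, 4880 and 6375 CPM in eWAT (-6.47, SE 0.223). Col4a1 and Col6a1, chains of the collagens that surround adipocytes, were at -5.26 (SE 0.176) and -6.31 (SE 0.367). Fn1, fibronectin, which hepatocytes secrete into plasma, was higher in liver, with 1221 to 1786 CPM against 264.2 to 352.7 CPM (2.23, SE 0.157). Col18a1, whose fragment is endostatin, was also higher in liver (1.67, SE 0.144).

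Growth factors and their binding proteins were shared out. Igf1 had 336.7, 530.8, 522.2 and 553.2 CPM in liver and 260.4, 247.8, 230.4 and 374.3 CPM in eWAT, a difference of 0.80 (SE 0.2, adjusted p = 0.00563) that was not called under scaling by library totals. Igfbp2, a carrier of insulin-like growth factors, had 220.8 to 633.6 CPM in liver and 1.469 to 10.77 CPM in eWAT (6.20; 8.19 without replicates 13 and 18), and Igfbp5 10.47 to 21.01 CPM in liver and 320.6 to 396.9 CPM in eWAT (-4.71, SE 0.247). Angptl4, an inhibitor of lipoprotein lipase, had 77.44 to 115.7 CPM in liver and 257.5 to 514.8 CPM in eWAT (-2.06, SE 0.215). Inhbe, the activin E chain, had 78.22 to 192.9 CPM in liver and 0.02273, 2.734, 0 and 2.11 CPM in eWAT (6.65; 12.96 without replicates 13 and 18). Fgf21 was not called, at 0.1044 to 5.052 CPM in liver and 0.4482 to 2.079 CPM in eWAT (adjusted p = 0.231).

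Hormone and metabolite receptors were divided between the tissues. Of 27 tested members 9 were called higher in liver and 16 in eWAT. Shares over 2-fold were 25.9% and 40.7%, against 13.6% and 17.3% of all genes. Gcgr, the glucagon receptor, had 270.6 to 389.6 CPM in liver and 0.09959 to 4.369 CPM in eWAT (7.07, SE 1.04; 8.67 without replicates 13 and 18). Lepr, the leptin receptor, had 6.703, 5.646, 9.712 and 13.57 CPM in liver and 1.409, 0.8645, 0.8465 and 0.7362 CPM in eWAT (3.20, SE 0.392), so the receptor was higher in the tissue without leptin counts. Agtr1a, the type 1 angiotensin receptor, had 33.76 to 47.12 CPM in liver and 4.442 to 7.659 CPM in eWAT (2.86, SE 0.208). Adrb3, the beta-3 adrenergic receptor of fat, had 2.26 to 14.37 CPM in liver and 202.1 to 446.6 CPM in eWAT (-5.61, SE 0.635). Npr3, the clearance receptor of natriuretic peptides, had 0.08685 to 3.496 CPM in liver and 1301 to 1632 CPM in eWAT (-9.42, SE 1.09). Ptger3, a prostaglandin E2 receptor, had 179.5 to 232.1 CPM in eWAT and 0.1044 CPM in liver replicate 18 only. Fgfr4 and Fgfr1, receptors of the endocrine FGFs, were split: Fgfr4 had 26.35 to 51.81 CPM in liver (6.83, SE 0.985; 8.25 without eWAT replicate 18, 7.66 without replicates 13 and 18) and Fgfr1 138.1 to 227 CPM in eWAT (-5.38, SE 0.19). Their co-receptor Klb was higher in eWAT by less than 2-fold (-0.97, SE 0.122). Insr, the insulin receptor, differed little, at 145 to 171.7 CPM in liver and 108.8 to 131.7 CPM in eWAT (0.42, adjusted p = 0.00925; -0.06 under scaling by library totals).

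Genes were also taken by size, whether or not they belonged to the lists. Among genes over 2-fold higher in liver with at least 10 CPM there, the largest differences included Capn8, a calpain (4.768 to 21.86 CPM in liver, 1 count in all eWAT libraries), Lgr5, the receptor that marks pericentral hepatocytes (2.578 to 18.26 CPM, 2 counts), and Notum, a Wnt inhibitor (22.75 to 44.07 CPM, 12 counts). The other 7 belonged to the Mup, Cyp2d and Mug families, whose near-identical copies can share reads, and their values are uncertain. The order depends on eWAT replicates 13 and 18: without them Inhbe (12.96), Abcg5 (12.56) and Cyp7a1 (12.35) had larger log2 differences than Capn8 (11.51), Lgr5 (11.34) and Notum (10.36). In eWAT replicates 12 and 15 Capn8 and Lgr5 had no counts and Notum at most 0.04546 CPM, under the floor of 0.0716 CPM. Inhbe and Cyp7a1 were likewise under it there, so these sizes and their order are uncertain. On the eWAT side the 10 named by the same rule had no liver counts. The rule ranks fitted values, in which genes without liver counts come first, so that genes with a few liver counts, such as Plin1, Ptger3, Serpina3c and Retn, are not among them. Besides Lep and Adipoq they were Apol6 (460.7 CPM), Glb1l2 (406.9 CPM), Retnla (337.8 CPM), Timp4 (206.2 CPM), Slc7a10, an amino acid transporter of adipocytes (176.5 CPM), Tshr, the thyrotropin receptor (171.6 CPM), Oxtr, the oxytocin receptor (164.7 CPM), and Hoxc8, a body-axis homeobox factor (155.5 CPM). Each was at least 1260-fold higher in eWAT against the floor. Car3, carbonic anhydrase 3, and Gsn, gelsolin, were among the 10 genes with most counts in eWAT. Car3 had 8347 to 12980 CPM in eWAT and 3126 to 4242 CPM in liver, and Gsn 4800 to 7818 CPM and 13.83 to 22.03 CPM.

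The deleted gene was read first in the other groups of the series, over 32 liver and eWAT libraries scaled together. In liver Agt had 325.9 to 513 CPM in hepAGT+/+ and 171.1 to 242.9 CPM in hepAGT-/- mice at room temperature, without overlap, and in eWAT 54.66 to 104.2 and 104.4 to 161.5 CPM. Counts cover the whole gene, so transcripts of a deleted allele may be counted. Agt itself was 2.44 higher in liver than in eWAT in the main comparison (SE 0.221, adjusted p = 6.24e-06). The tissue difference was then read in the other groups. Of the 235 members over 2-fold higher in liver, 221 were so in hepAGT-/- mice at room temperature, 232 in hepAGT+/+ and 230 in hepAGT-/- mice at thermoneutrality (30 °C). Of the 129 members over 2-fold higher in eWAT the counts were 115, 112 and 114. Over all genes, 89%, 90.8% and 89.6% of those over 2-fold higher in liver, and 76.3%, 82.9% and 80.5% of those higher in eWAT, were called again in the same groups. In these groups no gene over 2-fold in the main comparison, member or not, was called over 2-fold in the opposite direction. These groups share no library with the main comparison. The log2 difference of Fasn, -2.01 here, was -2.61 in hepAGT-/- mice at room temperature, -0.35 (adjusted p = 0.658) in hepAGT+/+ and -2.30 in hepAGT-/- mice at thermoneutrality, and that of Acaca was -2.26, -0.26 and -1.76. In hepAGT+/+ liver at thermoneutrality Fasn had 641, 1088, 1551 and 5149 CPM. The highest lay above the eWAT range of 1780 to 3531 CPM, and the others lay below it. Acaca there had 147.1, 181, 183.9 and 555.8 CPM, against 222.6 to 427.4 CPM in eWAT. How far the values of -0.35 and -0.26 rest on a single library was not tested. The test of the change with temperature, coded as the difference at room temperature minus that at thermoneutrality, did not pass in edgeR's test (Fasn -1.63, SE 0.642, adjusted p = 0.477; Acaca adjusted p = 0.411). Srebf1 stayed higher in liver in all 3 groups (1.59, 1.94 and 1.33).

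Over all genes, 1 of 20828 (0.0048%) had a tissue difference that changed with temperature in hepAGT+/+ mice, Serpine2, an inhibitor of thrombin. Its log2 change was 2.18 (SE 0.291, adjusted p = 0.000498): liver had 25.2 ± 2.18 CPM (SD, n = 4) at room temperature and 7.65 ± 1.63 CPM at thermoneutrality, and eWAT 57.9 ± 11.5 and 79.4 ± 25.4 CPM. DESeq2 called 108 genes, and leaving out single libraries gave 1 to 6, with 6 without liver replicate 11. The difference changed with genotype at room temperature for 76 genes (0.365%), 7 of them members; here the change is the difference in hepAGT+/+ minus that in hepAGT-/- mice. Lbp in eWAT had 261.8 to 453.6 CPM in hepAGT+/+ and 78.65 to 106.4 CPM in hepAGT-/- mice (interaction -2.12, adjusted p = 0.0134), and Serpinf1, the gene of the anti-angiogenic factor PEDF, 252.6 to 316.7 and 84.44 to 99.9 CPM (-1.77, adjusted p = 3.17e-05). Neither gene's eWAT groups overlapped. The other 5 members were Cfd, Mogat1, Tfpi, Enho and Hspg2. Cfd had 1075 to 1771 CPM in eWAT of hepAGT+/+ and 4184 to 6448 CPM in that of hepAGT-/- mice (3.71, adjusted p = 0.0366), a call that was lost when any 1 of 12 of the 16 libraries was left out (adjusted p of 0.0522 to 0.0854). It was kept without liver replicates 11 and 12 of hepAGT+/+, liver replicate 19 or eWAT replicate 16 of hepAGT-/- mice, each left out alone. Leaving out each of the 16 libraries in turn gave 19 to 74 genes. The count moved by over 1.5 times without any 1 of 10 libraries: eWAT replicates 12, 13, 15 and 18 and liver replicate 15 of hepAGT+/+, and eWAT replicates 9, 10 and 19 and liver replicates 9 and 10 of hepAGT-/- mice. These comparisons share the 8 hepAGT+/+ room temperature libraries with the main one.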

How the data were processed

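RNA of 4 liver and 4 eWAT samples, snap-frozen tissue per the labels, was deposited by the authors as raw read counts per Ensembl gene. The submitters' processing notes name fastp, STAR 2.6.1d, featureCounts 1.5.0-p3 and GRCm38/mm10; the strand setting and the annotation release are not given in the sources used here. Counting without strand would mix a gene with an antisense partner. Of 56748 IDs 52073 (91.8%) matched a gene symbol, with no less than 96.0% of a library's counts in named genes. A single ID without a symbol took 1.42%, 3.91%, 0.149% and 3.38% of counts in eWAT replicates 12, 13, 15 and 18. In liver replicates 11, 12, 15 and 18 it took 0.874%, 0.895%, 0.142% and 3.04%. It was thus highest in eWAT replicates 13 and 18, the libraries with most hepatocyte marker counts.

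Counts were tested with edgeR 4.0.16 in R 4.3.3 (filterByExpr with a minimum count of 10, TMM scaling, quasi-likelihood fit to the 8 libraries, liver minus eWAT, Benjamini-Hochberg adjustment over all genes tested, threshold 0.05). "Over 2-fold" is a call of edgeR's glmTreat test against a log2 difference of 1. The SE of a log2 difference was derived from the test: the fitted difference divided by the square root of the quasi-likelihood F. It is approximate, and for genes near 0 counts in a tissue it can understate the counting error. Values are CPM on TMM-scaled library sizes. Values per kilobase use the union of exons of GENCODE M21. A gene at 0 in all libraries of a tissue was given a bound from a floor of 3 counts per library, 0.123 CPM in liver and 0.0716 CPM in eWAT, which covers counting error only. Changes of the tissue difference with temperature or genotype were interaction terms in a fit to the 32 liver and eWAT libraries. The labels do not tie replicate numbers to mice, so p-values measure the spread between these samples.

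Genes that may be named were the members of the lists, pairs and markers; up to 10 genes per direction with the largest difference over 2-fold, at least 10 CPM in the higher tissue and no overlap between tissues; the 10 genes with most counts in each tissue; up to 5 genes per direction for each interaction, with at least 1 CPM; and Agt. Results for some genes are not reported here. The genes and lists were chosen with earlier results of these data known. On simulated data of 16527 genes the main test recovered 43.4% of 99 genes changed 2-fold and 85.1% of 94 changed 4-fold, with 5 false calls. In that simulation all other genes had the same mean in both tissues, and spread followed the mean level, not the gene. In the data 55.4% of genes were called, which changes the adjusted threshold, so these rates do not carry over to the main comparison. The interaction test, on 19988 genes, recovered 12.2% of 98 and 49.5% of 95, with 1 false call. Alternatives were 3 other scalings, 2 other filters, DESeq2 1.42.0, the fit to 32 libraries, the replicate number as a block, and leaving out libraries. Figures were drawn with matplotlib 3.10.9 and tables handled with pandas 2.3.3 in Python 3.11.15.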

Additional observations from a re-analysis of the deposited data

Results flagged for a closer look

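In 22 of 325 groups of 4 libraries for the genes named above, 1 library stood apart from the other 3. Chance gives about 1 in 20. That rate does not apply to Plin1, Retn, Sfrp5, Ptger3, Lgr5 and Capn8. Their other 3 libraries were at 0, so any count there stands apart. Without these genes, the number of groups with a library apart is about what chance gives. The CPM of that library is given with the range of the others. In liver replicate 15, Fasn was low at 292.3 CPM (others 1149 to 1285), while Cst3 was high at 185.5 CPM (140.3 to 143), Igfbp5 at 21.01 CPM (10.47 to 11.95) and Plin1 at 0.4238 CPM (the others at 0). In liver replicate 18, Acss2 was high at 243.1 CPM (98.06 to 102.6), Lpin2 at 655 CPM (448.1 to 479.4), Adipor2 at 862.7 CPM (637.6 to 652.4) and Ptger3 at 0.1044 CPM (0), and C1s1 low at 517 CPM (601.2 to 604.8). In liver replicate 11, Igf1 was low at 336.7 CPM (522.2 to 553.2), and Gk was high at 170.3 CPM (141.4 to 146) and Sfrp5 at 0.2312 CPM (0). Retn had 1.129 CPM in liver replicate 12 and 0 in the others.

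In eWAT replicate 15, Lipe was high at 1824 CPM (1332 to 1408) and Insr at 131.7 CPM (108.8 to 112.5), and Mogat2 was low at 9.735 CPM (17.22 to 17.99) and Tfpi at 15.54 CPM (20.12 to 20.96). In eWAT replicate 18, Gk was high at 30.28 CPM (13.32 to 15.75), Lgr5 at 0.04908 CPM (0) and Capn8 at 0.02454 CPM (0). Fgf21 was high in eWAT replicate 13 at 2.079 CPM (0.4482 to 0.5455), and Srebf2 in eWAT replicate 12 at 43.89 CPM (33.41 to 34.46).

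The tissue difference itself changed between groups for the genes that follow, by edgeR's interaction test. With housing temperature, room temperature minus thermoneutrality in hepAGT+/+ mice, the log2 change was 2.177 for Serpine2 (adjusted p = 0.000498). With genotype, hepAGT+/+ minus hepAGT-/- mice at room temperature, it was positive for Mogat1 at 4.347 (adjusted p = 0.0259), Cfd at 3.711 (0.0366), Fam19a5 at 2.502 (0.0379), Cntnap1 at 1.919 (0.0435), Lrrc39 at 1.66 (0.0302) and Tfpi at 1.587 (0.0179). It was negative for Ighg2b at -8.83 (0.0472), Mrc2 at -4.662 (0.0134), Adam12 at -4.389 (0.00891), Nup210 at -3.099 (0.0179), Enho at -2.605 (0.0466), Lbp at -2.123 (0.0134), Serpinf1 at -1.769 (3.17e-05) and Hspg2 at -1.133 (0.0379). Ighg2b is an immunoglobulin gene of plasma cells; the part of such cells in its value was not tested. With each of the 16 libraries left out in turn, the calls of Serpine2, Serpinf1, Lbp, Tfpi, Mrc2 and Adam12 were kept each time. Those of Nup210, Mogat1, Lrrc39, Hspg2, Cfd, Fam19a5, Enho, Cntnap1 and Ighg2b were lost without 1, 6, 9, 11, 12, 12, 13, 13 and 13 of the libraries. The value of Ighg2b ran from -12.79 to -4.49.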

How the results depend on the processing

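The numbers of genes called, and called over 2-fold, in each direction stayed within 1.5 times the reported ones in every alternative run for the 8 libraries. With a library left out, 4008 to 4327 genes were higher in liver and 4555 to 5445 in eWAT. Scaling by library totals gave 2934 and 7640, and over 2-fold 1849 and 4035, so that 31.4% of the genes over 2-fold were higher in liver, not 43.9%. Under that scaling Plin2 (-0.144), Rarres2 (-0.213), Insr (-0.06), Acadl (-0.417), Adipor2 (-0.372) and Srebf2 (-0.409) turned to eWAT. Of these, Acadl, Adipor2 and Srebf2 were then called higher in eWAT (edgeR adjusted p = 0.0399, 0.0255 and 0.0186). Insr and Igf1 were no longer called, and Acly, Acsl1 and Adipor1 were. Acadl also turned with upper quartile scaling (-0.008) and lay between -0.024 and 0.167 with a library left out. Hp turned to 0.012 with RLE scaling, 0.004 with a filter of 1 CPM, 0.012 with DESeq2, 0.059 in the fit to 32 libraries and 0.805 without eWAT replicates 13 and 18. With 1 library left out Hp lay between -0.345 and 0.423, Acacb between -1.088 and 0.152, and Adipor2 between -0.015 and 0.196. None of these was called in the comparison as reported, except Insr and Igf1. The causes were not tested.

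Whether a shared replicate number marks the same mouse cannot be told from the labels. The numbers recur between tissues within a genotype and temperature, but not between genotypes or temperatures. Liver and eWAT libraries of the same number correlated at 0.028, 0.033 and -0.016 in their deviations from the tissue means. Other pairs lay at -0.106 to 0.047. Such correlations cannot show whether the samples were paired. With the replicate number as a block, 3097 and 3724 genes were called, Hp turned to 0.19 and Acadl to -0.057, and 14 of 169 named genes were no longer called, among them Scd1 and several hepatocyte genes.

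The omission of eWAT replicates 13 and 18 was chosen after seeing the data. It left 2 eWAT libraries and gave 3798 and 4031 genes called; Scd1, Mogat1, Serpina3n and Insr were then not called, and C4b was.

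The change of the tissue difference with temperature, 1 gene as reported, was called for 108 with DESeq2, 5 in a fit to its 16 libraries alone and 0 with the replicate block; at an unadjusted p under 0.05 these had 2040, 1502 and 1025 genes. With a library left out it was called for 1 to 6 genes. The change with genotype, 76 genes as reported, was called for 460, 32 and 2 genes, and for 19 to 74 with a library left out. In the simulated data, where tissues had equal means apart from the changed genes, a 2-fold change of this kind was mostly missed with 4 libraries a group. Depth limits genes of low level, since 3 counts are 0.123 CPM in liver and 0.0716 CPM in eWAT.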

Other observations

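Of the other cell types whose markers were read, mesothelial cells, which line the fat pad, had all 5 markers over 2-fold higher in eWAT. Their sum was 25.3, 117, 23.4 and 81.3 CPM in eWAT replicates 12, 13, 15 and 18, so it was highest in the 2 libraries that also held most hepatocyte marker counts. Of the 5 markers of fibroblasts and adipose progenitors 4 were over 2-fold higher in eWAT, and Dpp4 was over 2-fold higher in liver (2.65). Of 5 Kupffer cell markers 4 were over 2-fold higher in liver, and Folr2 was over 2-fold higher in eWAT (-1.45). Of 5 hepatic stellate cell markers 4 were over 2-fold higher in liver. Macrophages that gather around lipid-laden cells are known for Trem2 and Gpnmb. Trem2 had 5.841, 12.29, 10.38 and 13.69 CPM in eWAT and 0.07063 to 1.042 CPM in liver. Gpnmb had 15.71, 25.98, 42.6 and 59.83 CPM in eWAT and 0 to 1.695 CPM in liver. Spp1, osteopontin, another gene of that list, was higher in liver, with 35.67 to 68.62 CPM there and 0.2727, 1.285, 4.755 and 9.963 CPM in eWAT. No library of one tissue overlapped the other in these 3 genes.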
